A study of Mus musculus with 30 samples.

Results

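The 9 genes of the Fc receptor family followed here across every library were Fcgr1, Fcgr2b, Fcgr3, Fcgr4, Fcer1g, Fcer2a, Fcrla, Fcrl1 and Fcrl5. They were taken by symbol, as 9 of the 55401 genes in the count table, by a rule that names genes and uses no measured value. The libraries came from a mouse B-cell lymphoma line of the genotype Eµ-Myc; p19ARF-/-, in which Myc is driven by the immunoglobulin heavy chain enhancer and the Arf product of Cdkn2a is lost. All groups share this genotype and 1 parental line. Wells of 10000 cells were treated with a dose of paclitaxel, a microtubule-stabilising drug, that kills 85% of cells in 3 days, or with the solvent DMSO instead, and then recovered for 4 days without drug. After 12 to 18 weeks of these cycles, 17 paclitaxel resistant lines, 12 DMSO control lines and the untreated parental line were each sequenced as 1 library. The lines grew in culture with no host cells. Each is a separate well of 1 parental line, so the tests below measure the spread between wells.

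Fc receptors bind the constant part of antibodies. Fcgr1, Fcgr3 and Fcgr4 encode activating IgG receptors that signal through the ITAM of the common gamma chain, the product of Fcer1g, by way of Src-family kinases and Syk. Fcgr2b encodes the inhibitory IgG receptor, whose cytoplasmic ITIM recruits the phosphatase SHIP1, and it is the main IgG receptor of B cells. Fcer2a encodes the low-affinity IgE receptor CD23, a marker of mature follicular B cells. Fcrl1 and Fcrl5 encode Fc receptor-like membrane proteins of B cells, and Fcrla encodes a related protein held inside the cell that binds immunoglobulin in the secretory pathway.

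Of the 9 genes, 4 were well covered and 5 were at or near 0. Fcgr2b, Fcgr3, Fcrla and Fcrl1 had a count in all 30 libraries, with totals of 17449, 3409, 32654 and 2227 counts. Fcgr4, Fcer1g, Fcrl5, Fcgr1 and Fcer2a had totals of 247, 78, 69, 5 and 1 counts. Within 1 stretch of chromosome 1 (GRCm38) lie Fcrla (ENSMUSG00000038421) at chr1:170917576-170927583, Fcgr2b (ENSMUSG00000026656) at chr1:170958617-170976547, Fcgr4 (ENSMUSG00000059089) at chr1:171018920-171029761, Fcgr3 (ENSMUSG00000059498) at chr1:171051174-171064935 and Fcer1g (ENSMUSG00000058715) at chr1:171229572-171234365. Fcgr4 is on the plus strand and the other 4 are on the minus strand. Chromosome 3 holds Fcrl1 (ENSMUSG00000059994) at chr3:87376387-87402934, Fcrl5 (ENSMUSG00000048031) at chr3:87435773-87500678 and Fcgr1 (ENSMUSG00000015947) at chr3:96282909-96293969, and Fcer2a (ENSMUSG00000005540) is at chr8:3681737-3694175.

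The sequences upstream of 5 members are shown, the 4 with a count in every library and Fcgr4, far from 0 in 1 library. Each is the 250 bases before the RefSeq start in GRCm38.p6, written 5′ to 3′ along the gene's own strand, with matches to the motifs searched in capitals.
Fcrla, chr1:170927584-170927833, minus strand: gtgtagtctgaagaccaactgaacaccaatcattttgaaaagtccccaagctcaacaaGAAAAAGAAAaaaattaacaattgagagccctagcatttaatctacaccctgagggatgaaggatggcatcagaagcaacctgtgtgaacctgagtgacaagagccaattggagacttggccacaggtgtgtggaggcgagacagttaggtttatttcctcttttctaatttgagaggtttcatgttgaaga
Fcgr2b, chr1:170976072-170976321, minus strand: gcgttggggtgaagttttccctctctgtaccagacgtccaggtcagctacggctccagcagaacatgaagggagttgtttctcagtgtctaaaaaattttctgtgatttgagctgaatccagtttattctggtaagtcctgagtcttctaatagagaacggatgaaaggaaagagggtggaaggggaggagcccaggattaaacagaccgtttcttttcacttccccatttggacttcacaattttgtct
Fcgr3, chr1:171059404-171059653, minus strand: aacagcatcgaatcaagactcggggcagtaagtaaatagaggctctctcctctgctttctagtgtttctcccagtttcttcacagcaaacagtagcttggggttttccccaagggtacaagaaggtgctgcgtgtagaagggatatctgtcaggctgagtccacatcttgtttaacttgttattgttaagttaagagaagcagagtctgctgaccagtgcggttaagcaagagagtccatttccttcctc
Fcgr4, chr1:171018676-171018925, plus strand: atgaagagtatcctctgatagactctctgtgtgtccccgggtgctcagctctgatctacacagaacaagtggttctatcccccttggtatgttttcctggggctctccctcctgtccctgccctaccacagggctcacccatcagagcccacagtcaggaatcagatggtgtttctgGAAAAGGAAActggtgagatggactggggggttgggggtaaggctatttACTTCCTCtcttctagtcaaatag
Fcrl1, chr3:87376137-87376386, plus strand: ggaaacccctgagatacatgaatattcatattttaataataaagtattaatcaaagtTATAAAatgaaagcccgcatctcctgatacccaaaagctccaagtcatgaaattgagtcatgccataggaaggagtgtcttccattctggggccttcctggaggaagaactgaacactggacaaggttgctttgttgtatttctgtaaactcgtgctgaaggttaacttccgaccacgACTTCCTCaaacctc
The motifs searched on both strands numbered 6: an E-box of the kind bound by Myc (CACGTG), the octamer (ATGCAAAT), a PU.1 core (GAGGAAGT), an EBF palindrome, an interferon response core and a TATA box (TATAAA). Among the 12 windows of the 9 members, 7 held none of the 6. The Fcgr4 window held the PU.1 core, read as ACTTCCTC on the gene's strand 24 to 17 bases before the start, and the interferon core as GAAAAGGAAA from 73 to 64 bases before it. Fcrl1 held the same PU.1 core 15 to 8 bases before its start and a TATA box further upstream. Fcrla held the interferon core as GAAAAAGAAA from 192 to 183 bases before its start. Neither Fcgr2b nor Fcgr3 held any of the 6. Their windows lie inside the gene spans given above, so the sequence before those spans was not searched. Over all 32851 promoter windows of this length, 2.44% held the PU.1 core, 2.98% the interferon core, 12.4% the TATA box, 6.02% the E-box, 1.6% the octamer and 0.779% the EBF palindrome. A match here is a run of letters and not a measured binding site.

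Depth ranged from 480919 counts in the library labelled Pac C1 to 6739131 in DMSO 11. Cdkn2a had 0 counts in all 30 libraries, and the 10 B cell marker genes looked for were all above the filter. In all, 4 libraries stood nearer to the mean expression profile of the other treatment than to their own, namely those labelled DMSO 11, DMSO 12, Pac C1 and Pac H9. By Pearson correlation about the midpoint of the group means, Pac C1 leaned least to the other treatment, at 0.046. Pac H9 had 0.133, DMSO 11 had 0.126 and DMSO 12 had 0.145. In Abcb1b, a drug efflux pump, Pac H9 had 26.3 CPM, the lowest of the resistant lines, and DMSO 12 had 70.3 CPM, the highest of the DMSO lines. Whether labels from DMSO 12 onward are displaced was not tested, so each line, the parental one included, is named here by its deposited label, and results that turn on these libraries are also given without them. CPM, the counts of a gene relative to the TMM-scaled total of its library, is compared only between libraries for the same gene, since gene length was not used.

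The question put to all members was whether the lines selected in paclitaxel differ from the DMSO lines. None of the 4 members with enough counts for the test across all genes was called, against 2.20% of 9445 genes at an adjusted p under 0.01 in edgeR's quasi-likelihood test (0.995% higher and 1.21% lower in the resistant lines). Of these 4 genes, 2 had an unadjusted p under 0.05, as did 2368 genes in all. Members called stayed at 0 under every alternative fit at 0.01, DESeq2 included, and in the reported fit at a threshold of 0.05.

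Fcrla was lower in most resistant lines, although its difference did not pass the test across all genes. It had 209.5 CPM at the lowest, a median of 420 and 523 at the highest in the 12 DMSO lines (401 ± 94.4, SD). In the 17 resistant lines it had 59.0 CPM at the lowest, a median of 212 and 584 at the highest (234 ± 147, SD). The parental library had 434 CPM, close to the DMSO median.

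Below every DMSO line lay 8 of the 17 resistant lines, namely Pac C11 with 59.0 CPM, Pac D10 with 83.6, Pac G9 with 93.3, Pac D7 with 113, Pac A6 with 126, Pac F10 with 128, Pac D4 with 142 and Pac H1 with 154. Pac E2 alone lay above all DMSO lines, at 584 CPM, and the other 8 lay within the DMSO range. In all, 15 of 17 resistant lines were under the DMSO median. The groups therefore overlapped, and the resistant lines spread 9.9-fold from lowest to highest against 2.5-fold among the DMSO lines.

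The log2 fold change of Fcrla was -0.78 ± 0.26 (SE), with an adjusted p of 0.0577 in edgeR's quasi-likelihood test. A two-sided permutation test on the ranks of CPM for this gene alone gave p = 0.00236. Over the alternative fits with edgeR or DESeq2 the adjusted p ran from 0.0305 to 0.0632, and over the fits that left out 1 library each it ran from 0.0183 without Pac E2, where the change was -0.93, to 0.101 without DMSO 10. Without DMSO 12 and Pac H9 the change was -0.84 with an adjusted p of 0.0506 in the same test. A pseudogene on the same strand, Gm2962, lies within Fcrla, and its log2 fold change was -0.50 with an adjusted p of 0.398 in the quasi-likelihood test.

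**Figure D1:**
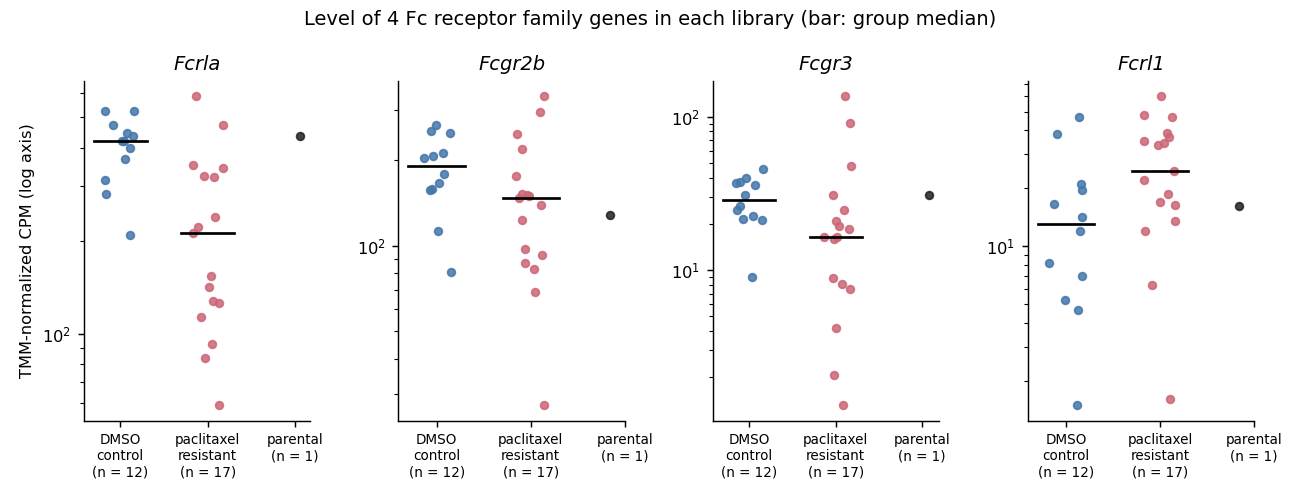
Each point is 1 library, with TMM-normalized CPM on a log axis, in the 12 DMSO control lines, the 17 paclitaxel resistant lines and the parental line, and bars mark group medians. Fcrla reached 59.0 CPM in the lowest resistant line against 209.5 in the lowest DMSO line, and Fcgr3 spread from 1.31 to 135 CPM among the resistant lines.

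Fcgr2b, the inhibitory receptor, differed less between the groups than within them. Its CPM was 80.5 at the lowest, 190 at the median and 265 at the highest in the DMSO lines (187 ± 56.1, SD, n = 12). The resistant lines had 27.5 CPM at the lowest, 146 at the median and 334 at the highest (152 ± 81.7, SD, n = 17), and the parental library had 128. Pac F10, at 27.5 CPM, and Pac D4, at 68.6 CPM, lay below all DMSO lines, while Pac E1, at 295 CPM, and Pac C3, at 334 CPM, lay above them. The other 13 fell within the DMSO range. Its lower end rests on DMSO 9, with 81 counts, and the next lowest DMSO line was DMSO 5 with 112 CPM.

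The log2 fold change of Fcgr2b was -0.30 ± 0.24 (SE), with an adjusted p of 0.455 in edgeR's quasi-likelihood test. The difference of median CPM was -44.1, and the two-sided permutation test on ranks gave p = 0.0887. Without Pac C3 and DMSO 11 the difference of medians was -60.2, and that test on ranks gave p = 0.0449. Pac F10 had 156 counts of Fcgr2b, so its low level rests on more than a few reads.

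Fcgr3, an activating IgG receptor, had a wider range among the resistant lines than among the DMSO lines. The DMSO lines ran from 9.04 CPM in DMSO 4 through a median of 28.4 to 45.8 in DMSO 8 (29.3 ± 10.3, SD, n = 12). The resistant lines ran from 1.31 CPM in Pac H3 through a median of 16.4 to 135 in Pac G9 (27.5 ± 35.0, SD, n = 17). The parental library had 31.01 CPM. The coefficient of variation was 35.2% in the DMSO lines and 127% in the resistant lines, given here as a description.

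Among the resistant lines, 6 lay below every DMSO line and 3 above. The low ones were Pac H3 with 3 counts (1.31 CPM), Pac D10 with 2 counts (2.07 CPM), Pac C1 with 2 counts (4.18 CPM), Pac B2 with 7.52 CPM, Pac H4 with 8.04 CPM and Pac H1 with 8.82 CPM. Of these 6, only Pac H3 had a Wilson 95% interval, 0.446 to 3.85 CPM, that lay clear of the 6.96 to 11.7 CPM of DMSO 4, the lowest DMSO line. The intervals of the other 5 overlapped it, as in the shallow Pac C1 with 1.15 to 15.2 CPM. The number below rests on DMSO 4, since the next lowest DMSO line, DMSO 12, had 21.2 CPM. The high lines were Pac G9 with 843 counts (135 CPM), Pac D7 with 321 counts (90.9 CPM) and Pac D4 with 221 counts (47.5 CPM), of which the interval of Pac D4 overlapped that of DMSO 8, the highest DMSO line. These intervals cover counting error only.

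Fcgr3 had a log2 fold change of -0.05 ± 0.43 (SE) and an adjusted p of 0.953 in edgeR's quasi-likelihood test. Without Pac G9, the highest line, the log2 fold change was -0.47 with an adjusted p of 0.469 in the same test. On ranks, the resistant lines were lower, with 13 of 17 under the DMSO median, a difference of medians of -12.0 CPM and p = 0.0300 in the two-sided permutation test. That p was 0.0874 in the permutation test once all libraries were thinned to the depth of the smallest, and 0.0693 without the 4 libraries nearer to the other treatment. This permutation test was run on 7 members, and its p-values are unadjusted.

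Fcgr2b and Fcgr3 are paralogs whose coding parts are alike, so the reads could be split between them. In the last 1000 bases of their annotated transcripts, where this 3′ method counts, 10.3% of the 50-base stretches of Fcgr3 also occurred in another gene, and that gene was Fcgr2b. For Fcgr2b 4.81% occurred elsewhere, and for Fcgr4, Fcrla, Fcrl1, Fcrl5, Fcer1g and Fcgr1 the share was 0%. The ratio of Fcgr3 to Fcgr2b counts was taken for each library after the values had been seen. It was 16.9 Fcgr3 counts per 100 Fcgr2b counts at the DMSO median, with a range of 5.08 to 38.3, and 24.3 in the parental library. The resistant lines had a median of 10.2 and ran from 0.896 in Pac H3 to 77.2 in Pac G9. Pac H3, Pac D10 and Pac C1 lay below all DMSO lines and Pac G9, Pac D4 and Pac F10 above, and the medians did not differ beyond the spread (two-sided permutation test, p = 0.283).

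**Figure D2:**
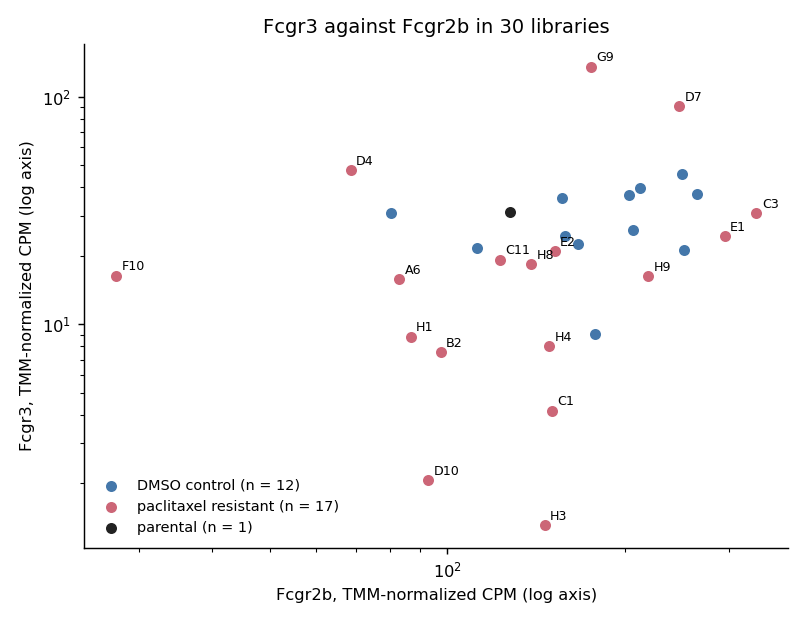
Fcgr3 is plotted against Fcgr2b for all 30 libraries, both as TMM-normalized CPM on log axes, with the resistant lines named. Pac G9 had 135 CPM of Fcgr3 at 175 CPM of Fcgr2b, whereas Pac H3 had 1.31 CPM of Fcgr3 at 146 CPM of Fcgr2b.

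Fcrl1, a B-cell membrane protein, had a higher median in the resistant lines without passing the test across all genes. The DMSO lines had 1.498 CPM at the lowest, 13.1 at the median and 46.7 at the highest (16.3 ± 13.8, SD, n = 12). The resistant lines had 1.61 CPM at the lowest, 24.6 at the median and 60.0 at the highest (27.4 ± 16.1, SD, n = 17), and the parental library had 16.1. Pac C3 with 60.0 CPM, Pac G9 with 48.3 CPM and Pac H9 with 47.1 CPM lay above all DMSO lines, none lay below, and 14 of 17 exceeded the DMSO median.

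The ranges of Fcrl1 overlapped almost throughout, since the DMSO lines spread 31.2-fold. The low end of that spread was DMSO 10 with 3 counts, followed by DMSO 4 with 4.68 CPM. The log2 fold change of Fcrl1 was 0.81 ± 0.39 (SE), with an adjusted p of 0.197 in edgeR's quasi-likelihood test and p = 0.0529 in the two-sided permutation test. The permutation p was 0.0347 without DMSO 12 and Pac H9, 0.132 without Pac C3 and DMSO 11, and 0.151 after thinning.

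Of the 5 members near 0, Fcgr4 was high in a single library. Pac D7 had 166 of the 247 Fcgr4 counts, or 47.0 CPM with a Wilson 95% interval of 40.4 to 54.7. The next highest was DMSO 12 with 4.04 CPM from 8 counts, followed by Pac E2 with 3.44 CPM from 15 counts. No Fcgr4 count was seen in 13 libraries, the parental one included. Fcgr4 was seen in 11 of 17 resistant lines and 6 of 12 DMSO lines, and the two-sided permutation test gave p = 0.100. Without the 4 libraries nearer to the other treatment that test gave p = 0.0259, with medians of 0 CPM in the DMSO lines and 1.39 CPM in the resistant lines, and after thinning both medians were 0 CPM and it gave p = 0.820. In a fit without a filter on low counts its log2 fold change was 3.03 with an adjusted p of 0.0460 in the quasi-likelihood test, a value that rests on counts near 0 and on Pac D7.

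Fcer1g, the gamma chain gene, had 78 counts in 14 libraries and 0 in the other 16. Its highest counts were 14 in Pac F10, 14 in Pac G9, 12 in Pac D7 and 9 in Pac C11, and the highest level was 3.40 CPM in Pac D7. Of the resistant lines, 5 lay above all DMSO lines, whose highest was 1.01 CPM, yet the median was 0 CPM in the resistant lines and 0.206 in the DMSO lines (two-sided permutation test, p = 0.728). Pac D7, Pac G9 and Pac D4, the lines with the most Fcgr3, had 12, 14 and 3 Fcer1g counts.

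Fcrl5 had 69 counts in 18 libraries, at most 14 in Pac G9, and medians of 0.411 CPM in the DMSO lines and 0.352 CPM in the resistant lines (two-sided permutation test, p = 0.656). Fcgr1, the high-affinity IgG receptor, had 4 counts in Pac E1 and 1 in Pac E2. Fcer2a had 1 count, in DMSO 4. For a gene with no count, 3 counts stand for 0.482 CPM in DMSO 4 and 6.24 CPM in the shallow Pac C1, so low expression was not detectable in the latter.

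**Figure D3:**
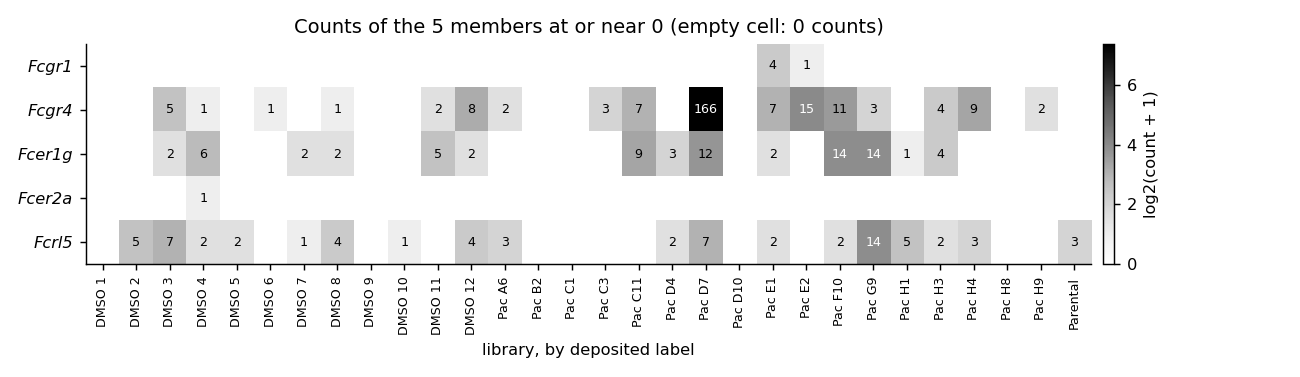
Counts of the 5 members at or near 0 are printed for each library by its deposited label, shaded by log2(count + 1), and an empty cell is 0. The 166 counts of Fcgr4 in Pac D7 stand apart, and the next highest count of any of the 5 genes is 15.

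Markers of other cell types were looked at beside these values, and their part in the levels of Fcgr3 and Fcgr4 was not tested. Of 10 macrophage or monocyte genes, Adgre1, Ms4a7, C1qa and C1qb had 0 counts in all 30 libraries, and Cd68, Itgam and Mpeg1 were above the filter. The summed level of the list was 8.81 to 40.7 CPM in the DMSO lines, 10.1 to 61.2 in the resistant lines and 40.6 in the parental library. In Pac G9, the line with the most Fcgr3 and Tyrobp, the sum was 61.2 CPM. Cd68, a lysosomal membrane protein of macrophages, made up 46.8 of it, against at most 9.92 in the DMSO lines. The other genes of the list did not follow in Pac G9. Itgam, at 8.66 CPM, and Mpeg1, at 5.77 CPM, were within the DMSO range there, and Csf1r, Lyz2 and Cd14 had 0. In Pac D10, with little Fcgr3, the sum was 60.9 CPM, of which the integrin chain Itgam made up 47.5 against at most 27.9 in the DMSO lines. S100a8, S100a9 and Elane of the granulocyte list and Kit, Cpa3, Mcpt4, Mcpt8 and Tpsb2 of the mast cell or basophil list were at 0 in every library.

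Pac D7, the line with Fcgr4, lay within the DMSO range for the macrophage, dendritic cell, mast cell or basophil and pro-B or pre-B cell sums and above it for the NK or T cell, plasma cell and granulocyte sums. The granulocyte sum was 1.42 CPM in Pac D7, from Ly6g with 0.849 and Mpo with 0.566, against at most 1.14 in the DMSO lines. That is a few counts, since 3 counts stand for 0.919 CPM in Pac D7, and Pac C3 was higher with 1.71 CPM. Of the 9 NK or T cell genes, Cd3e, Cd4, Gzma and Nkg7 were at 0 in every library and the other 5 had counts, with Cd3d above the filter. Their sum was 1.31 to 16.7 CPM in the DMSO lines and 0 to 20.4 in the resistant lines, highest in Pac D7. There Cd3g, a chain of the T-cell receptor complex, had 13.02 CPM against at most 1.75 in the DMSO lines. Cd3d lay within the DMSO range in Pac D7, at 6.51 CPM against at most 9.10. Klrb1c had 0.849 CPM in that line, and Cd8a and Ncr1 had 0. The highest Klrb1c, 15.6 CPM, was in DMSO 3. The 7 plasma cell genes summed to 62.1 to 195 CPM in the DMSO lines and to 41.8 to 200.2 in the resistant lines, with the highest sum again in Pac D7. Irf4 made up 158.8 CPM of it, within the DMSO range of up to 177. Above the DMSO lines in Pac D7 were Xbp1 with 24.9 CPM (at most 20.9), Mzb1 with 7.08 (5.59), Sdc1 with 3.96 (2.56) and Prdm1 with 2.83 (0.698). Jchain, with 2.55 (3.54), and Tnfrsf17, with 0, were not. The 7 pro-B or pre-B cell genes summed to 19.9 to 219 CPM in the DMSO lines and to 23.5 to 204 in the resistant lines, of which Pac D7 was the highest. Of 6 dendritic cell genes, 1 was above the filter, and their sum was 4.55 to 32.5 CPM in the DMSO lines and 7.58 to 33.0 in the resistant lines. In Pac D7 that sum was 18.4 CPM.

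All 10 B cell genes were tested and none was called, with a median log2 fold change of -0.26 beside 0.07 over all genes tested. Their summed level was 3617 to 6697 CPM in the DMSO lines and 2063 to 6572 in the resistant lines. Cd79b, a chain of the B-cell receptor, had 1788 ± 328 CPM (SD) in the DMSO lines and 1148 ± 402 in the resistant lines, a log2 fold change of -0.64 ± 0.16 (SE) with an adjusted p of 0.0132 in edgeR's quasi-likelihood test. Its adjusted p was 0.00837 in that test without DMSO 12 and Pac H9. The list took both signs, with -1.84 for Ms4a1 and 0.45 for Blk on the log2 scale. Fcrla is made in B cells, and the part of the B cell genes in its level was not tested. In bulk RNA, fewer cells of a type and less RNA per cell cannot be told apart.

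The antibodies that Fc receptors bind were nearly limited to IgM and IgD. Ighm had 3571 ± 992 CPM (SD) in the DMSO lines and 3728 ± 1209 in the resistant lines, with a log2 fold change of 0.06 ± 0.16 (SE) and an adjusted p of 0.835 in the quasi-likelihood test. Ighd, whose transcript marks mature naive B cells, had 111 ± 52.9 CPM in the DMSO lines and 48.0 ± 54.7 in the resistant lines, and 11 of 17 resistant lines lay below every DMSO line. Its log2 fold change was -1.22 ± 0.38 (SE) with an adjusted p of 0.0418 in edgeR's quasi-likelihood test. The library labelled Pac H9 had the highest Ighd of all, 236 CPM, and without it and DMSO 12 the change was -1.70 with an adjusted p of 0.000858 in that test. The genes for the IgG, IgE and IgA constant regions had 0 to 25 counts each over all libraries, so transcripts for the ligands of Fcgr1, Fcgr2b, Fcgr3, Fcgr4 and Fcer2a were at or near 0 in these cells.

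The other Fc receptors and Fc-binding proteins were at 0 or low, apart from Tyrobp. Fcrlb, Fcrls, Fcrl6 and the IgE receptor chains Fcer1a and Ms4a2 had no count in any library. Fcmr, the IgM receptor, had 117 counts, Trim21, a cytosolic antibody receptor, 164, Fcgrt, the neonatal receptor, 31, Pigr 11 and Fcamr 2. Tyrobp, an ITAM adaptor related to the gamma chain, was the 1 gene of 12 above the filter. It had 114 ± 71.3 CPM (SD) in the DMSO lines and 124 ± 66.4 in the resistant lines, with a log2 fold change of 0.13 ± 0.29 (SE) and an adjusted p of 0.810 in the quasi-likelihood test. Its highest level, 282 CPM, was again in Pac G9.

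The genes that carry the signal of Fc receptors were tested next, 16 of 25 on the activating side, and none was called in either direction. Their median log2 fold change was 0.09 beside 0.07 over all genes. Bank1, a B-cell scaffold protein, had 156 ± 39.5 CPM (SD) in the DMSO lines and 89.8 ± 52.7 in the resistant lines, a log2 fold change of -0.81 with an adjusted p of 0.0250 in the quasi-likelihood test. Without DMSO 12 and Pac H9 it passed, at -0.95 with an adjusted p of 0.00476 in the same test. Plcg2, the phospholipase downstream of Syk and Btk, had 39.1 ± 11.2 and 57.9 ± 18.0 CPM, a log2 fold change of 0.56 with an adjusted p of 0.0344 by that test, and 8 of 17 resistant lines were above all DMSO lines. The adaptor Grb2 had 0.84 and an adjusted p of 0.0632, the lipid kinase Pik3cd 0.67 and 0.168, and the exchange factor Vav1 -0.41 and 0.272, all from edgeR.

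On the inhibitory side, 10 of 12 genes were tested and none was called, with a median log2 fold change of 0.19. Inpp5d, which encodes the SHIP1 phosphatase recruited by Fcgr2b, had 84.0 ± 21.2 CPM (SD) in the DMSO lines and 92.6 ± 38.5 in the resistant lines, and is named for that role. The adaptor Dok1 had a log2 fold change of 0.79 with an adjusted p of 0.0609, and the ubiquitin ligase Cblb 0.77 with 0.115, both in edgeR's quasi-likelihood test. Inppl1 had 0.50, Dok3 -0.32 and Rasa1 0.45 on the same scale, with adjusted p-values of 0.331, 0.331 and 0.460 in edgeR.

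Fcgr2b is 1 of several ITIM receptors of B cells, and 8 of the 10 others listed were tested without a call, with a median log2 fold change of -0.35. Siglecg, a sialic acid receptor, came nearest, with 73.8 ± 14.4 CPM (SD) in the DMSO lines and 45.1 ± 16.5 in the resistant lines. Below all DMSO lines lay 12 of 17 resistant lines, and the log2 fold change was -0.69 ± 0.17 (SE) with an adjusted p of 0.0113 in the quasi-likelihood test. It passed in 8 of the 41 fits run, DESeq2 among them. Cd300a had 1.43 with an adjusted p of 0.0720, Pecam1 -0.49 with 0.182, Ceacam1 -0.86 with 0.208 and Cd72 -0.44 with 0.263, again as log2 fold changes in edgeR.

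Among the 4 genes tied to Fcer2a, 2 were tested and neither was called. Adam10, the protease that sheds CD23, had a log2 fold change of -0.34 with an adjusted p of 0.346, and Notch2 0.54 with 0.322, both in edgeR's quasi-likelihood test. Cr2, the complement receptor that binds CD23, had 58 counts. Lgals3, galectin-3, which also binds IgE, was under the filter. It had up to 32.6 CPM in the DMSO lines, at most 2.62 in the resistant lines and 15.5 in the parental library. In the fit with no filter its log2 fold change was -5.01 with an adjusted p of 1.24e-05 in the quasi-likelihood test.

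**Figure D4:**
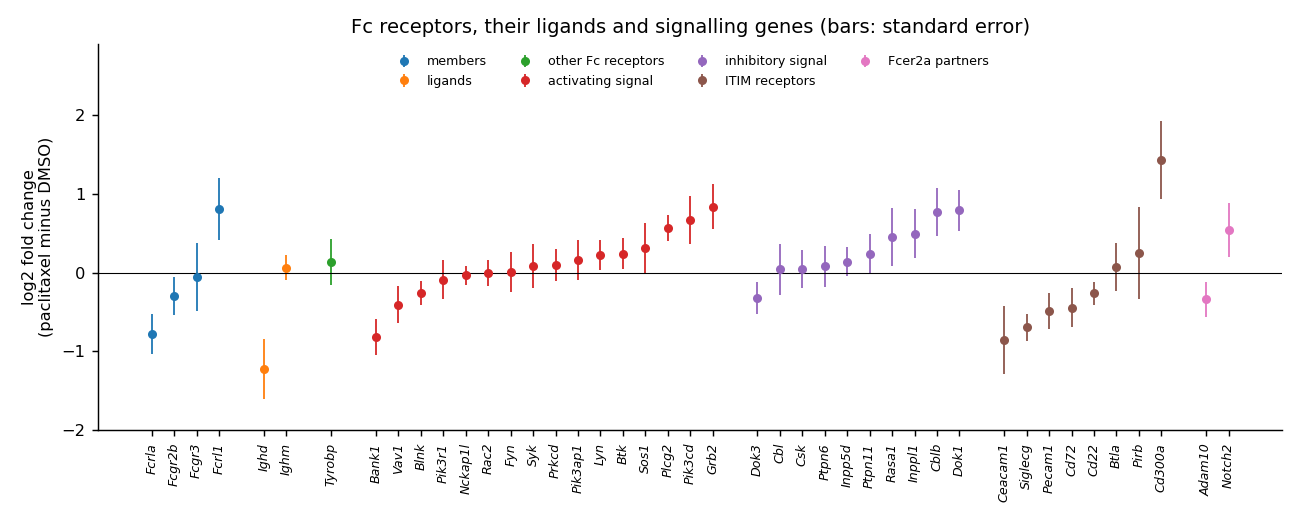
Log2 fold changes of paclitaxel resistant minus DMSO control lines are drawn with their standard errors for the members, their ligands and the listed signalling genes that were tested. None of the genes drawn was called, and they range from -1.22 for Ighd to 1.43 for Cd300a.

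Because 5 members share a stretch of chromosome 1, their neighbours were examined for a change over the region. Within 500 kb of those 5, 23 other genes were tested, none was called and the median log2 fold change was 0.14. Around all 9 members it was 66 genes, none called and a median of 0.18, and within 1000 kb it was 115 genes, of which 1 near Fcrl1 and Fcrl5 was called higher. This was Nes, an intermediate filament gene named after its value was seen, with a log2 fold change of 3.61 ± 0.75 (SE) and an adjusted p of 0.00293 in edgeR's quasi-likelihood test. On this stretch the neighbour of lowest p was Cd244a, a receptor of the SLAM family, with -1.30 ± 0.35 (SE) and an adjusted p of 0.0182 in the quasi-likelihood test. Cd48, its ligand, had -0.68 and an adjusted p of 0.0707, Itln1 -1.55 and 0.0399, and Ly9 0.86 and 0.124 by the same test. The neighbours' own median deviation from the DMSO mean ran from -0.59 in Pac C1 to 0.56 in Pac E2 on the log2 scale. In Pac G9 it was 0.20, while Fcgr3 deviated by 2.28 and Fcrla by -2.05, so members of 1 stretch lay on opposite sides of the DMSO mean in the same library.

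**Figure D5:**
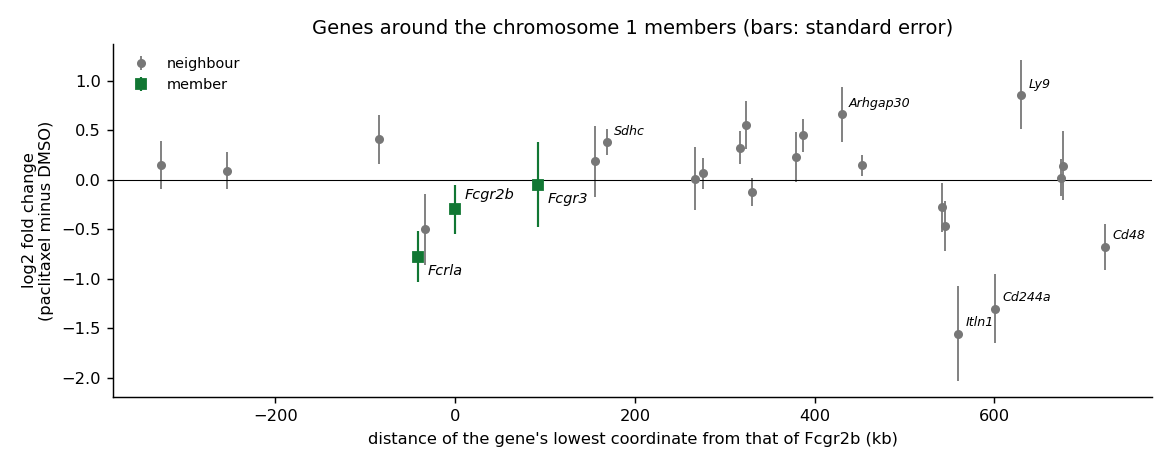
Log2 fold changes with standard errors are drawn for the tested members on chromosome 1 and the 23 tested neighbours, against the distance in kb of each gene's lowest coordinate from that of Fcgr2b. Fcrla lies 41.0 kb on one side with -0.78, Fcgr3 lies 92.6 kb on the other with -0.05, and neighbours take both signs.

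The 4 covered members varied between lines in different ways. Over the deviations of 29 lines from their own group mean, Spearman's rho was 0.40 for Fcgr2b with Fcgr3, 0.31 for Fcgr3 with Fcrl1, 0.21 for Fcgr2b with Fcrla, 0.21 for Fcgr2b with Fcrl1, -0.19 for Fcrla with Fcrl1 and -0.27 for Fcgr3 with Fcrla. These are descriptions over libraries that differ in depth. Among 8333 genes of at least 5 CPM, the genes most like each member by this measure were Sec23b (0.85), Chac2 (0.83) and Tmem167 (0.83) for Fcrla, and Washc4 (0.78), Stx5a (0.75) and Socs6 (0.74) for Fcgr3. For Fcrl1 they were Clk1 (0.80), Rnf167 (0.79) and Rpl36 (0.75), and for Fcgr2b Gm6794 (0.76), Ccnf (0.70) and Efna1 (0.69). With Pearson's r in place of rho, 2 of the 3 genes were shared for Fcgr3, 1 for Fcrl1 and 0 for Fcrla and Fcgr2b, so these lists depended on the measure.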

How the data were processed

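The 30 libraries were 3′ digital gene expression libraries from total RNA. The authors aligned reads of 50 bases to GRCm38 with STAR 2.5.1b and deposited raw counts per gene from STAR, with no normalization. Their methods name the gencode M25 annotation, and symbols were matched here to gencode M21 (55141 of 55401 identifiers). Whether molecular identifiers were collapsed, and which of the 2 subpools of 15 held each line, is not given in the sources used here. Libraries were grouped by the treatment in the labels. Genes were filtered with filterByExpr (9445 kept), scaled with TMM and tested with edgeR 4.0.16 in R 4.3.3 (quasi-likelihood, treatment as the only term, Benjamini-Hochberg adjustment, called under 0.01), as paclitaxel resistant minus DMSO control, without the parental library. DESeq2 1.42.0 was an alternative. Single genes were tested with 100000 two-sided permutations of rank sums. Likeness used log2 CPM with a prior count of 2. Promoter sequences are RefSeq's, on GRCm38.p6, and all 9 members had a window. Named genes were the members and up to 5 genes of lowest p in each list, besides those named for a role or for having no counts. The members and lists were chosen with earlier results of these data known. Alternatives changed scaling, filter, test, threshold, depth and the libraries used. Totals of 480919 to 6739131 counts limit the precision of low genes.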

Additional observations from a re-analysis of the deposited data

How the results depend on the processing

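No member was called in any fit, and the log2 fold changes of Fcgr2b, Fcrla and Fcrl1 kept their signs throughout. That of Fcgr3, near 0, reversed to 0.0314 after thinning every library to the smallest total and ran from -0.47 without Pac G9 to 0.039 without DMSO 1 when single libraries were left out. Without single libraries the change of Fcgr2b was -0.41 to -0.24, of Fcrla -0.93 to -0.71 and of Fcrl1 0.68 to 1.03. Genes called higher numbered 94, and 232 with the likelihood ratio test, 267 with DESeq2, 157 with log10 total counts as a covariate, 49 after thinning, 158 without DMSO 12 and Pac H9, 168 without Pac C3 and DMSO 11, and 371 at a threshold of 0.05. Genes called lower numbered 114, and 216, 224, 56 and 343 with the likelihood ratio test, DESeq2, thinning and the threshold of 0.05. Leaving out DMSO 11, DMSO 12, Pac C1 and Pac H9, a choice made after seeing the data that removes the libraries least like their group, gave 272 higher and 219 lower. Leaving out single libraries gave 54 (without DMSO 2) to 159 (without DMSO 11) higher, with 57 without DMSO 4 and 58 without DMSO 10, and 77 to 147 lower. The p of the permutation test on ranks fell under 0.05 for Fcgr2b without Pac C3 and DMSO 11, where the difference of median CPM was -60.2. It did so for Fcrl1 with CPM by library total (11.4), without DMSO 12 and Pac H9 (11.3) and without the 4 libraries (11.5). For Fcgr4 it did so without the 4 (1.39). For Fcgr3 the difference of medians was -13.4 after thinning and -15.0 without the 4, and that test no longer passed. Medians near 0 reversed for Fcer1g, to 0.235 without either pair and 0.470 without the 4, and for Fcrl5, to 0.0339 with CPM by library total, 0.0682 without DMSO 12 and Pac H9 and 0.0191 without the 4. The cause of these shifts was not tested. No paired analysis was possible because the replicate numbers only name separate wells in accession order.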
